A study of Ovis aries with 6 samples.

Results

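The miR-10 family of the fetal sheep rumen was examined, taken as every listed miRNA whose sheep name carries the number 10 with any letter or arm. The rule found 2 of the 1253 listed miRNAs, oar-miR-10a and oar-miR-10b, and no entry named for the opposite arm of either hairpin. Small RNA had been sequenced from the rumen of Hu sheep fetuses, labelled wild type, in 1 library per fetus, with 3 fetuses in each group. The CON group came from ewes with normal feeding. The UN group, called TR in the sample labels, came from ewes whose feed was cut to 30% of their own baseline intake on day 115 of gestation and kept there for 15 d. By the methods of the study the fetuses of both groups were taken at the end of that period, on day 130, although every sample, CON included, is labelled with day 115. The study used male fetuses for this assay, and whether any of them shared a ewe is not given in the sources used here, so that p-values measure the spread between these 6 libraries. The series title names jejunum and ileum, whereas every sample is labelled rumen, and the sample labels were followed.

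A miRNA represses mRNAs that pair with its seed, the short stretch that begins at its second base. The miR-10 genes are known for their place inside the HOX loci, the gene arrays whose homeodomain transcription factors set position along the head-to-tail axis of the embryo, and their expression follows that axis in vertebrates. Human miR-10b is known to repress *HOXD10*, a gene of the locus that carries it. In the RefSeq gene table for sheep (assembly ARS-UI_Ramb_v3.0) the miR-10a gene lies within the span of *HOXB3*, with *HOXB5* and *HOXB4* as the nearest other coding genes. The miR-10b gene lies within the span of *HOXD4*, between *HOXD3* and *HOXD8*. Coordinates are not given because the name the authors use for their build does not settle which sheep assembly it was.

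The mature sequences, as listed for these libraries, are shown because the members differ by a single internal base and because the entries do not begin at the same base. Capitals mark the letters ACCCUGU, which are bases 2 to 8 of miR-10a.
oar-miR-10a: uACCCUGUagauccgaauuug
oar-miR-10b: ACCCUGUagaaccgaauuugug
Counted from 1 at the 5′ end of miR-10a, the listed miR-10b starts at position 2, overlaps miR-10a over 20 bases and differs from it by the substitution U12A. Its own bases 2 to 8, read as listed, are therefore CCCUGUA, and a grouping by bases 2 to 8 alone would part the members. No other of the 1253 listed sequences held the letters ACCCUGU at any place, and none was identical to either member. Because 1 base parts the members inside the overlap, reads of one could be assigned to the other where a mismatch was accepted. How the authors assigned such reads is not given in the sources used here.

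Relatives outside the HOX loci include miR-99a and miR-100, whose seed lacks 1 base of the miR-10 seed. They are shown with their own bases 2 to 8 in capitals, for comparison with the members. novel_miR_1092 carries the sequence of the conserved miR-100, a match made from general knowledge, as are the conserved names of all newly predicted entries below.
oar-miR-99a: aACCCGUAgauccgaucuug
novel_miR_1092: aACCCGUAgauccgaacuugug
By edit distance, both entries lay 4 changes from miR-10a, as did miR-10b, so the relatives were no farther from miR-10a than the other member when the whole listed sequences were compared. From miR-10b, novel_miR_1092 lay 4 changes, oar-miR-125b 5 and oar-miR-99a 6. oar-miR-125b lay 6 changes from miR-10a.

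Each deposited value gives the reads of 1 miRNA in every 1000000 that fell on listed miRNAs (RPM). The libraries held 18584326 to 35555822 assigned reads. miR-143, a smooth muscle miRNA, took 29.5% to 50.0% of them, with the lowest share in CON replicate 2. The miR-145 sequence, the other smooth muscle marker used, stood at 9061, 8680 and 8352 RPM in CON replicates 1 to 3. It was thus not lowest in CON replicate 2. In UN replicates 1 to 3 it stood at 6834, 8367 and 8547 RPM. The log2 fold changes were 0.12 for miR-143 and -0.14 for the miR-145 sequence (adjusted p = 0.92 and 0.89 with limma). The summed epithelial markers (miR-200a, miR-200b, miR-200c and the sequences of miR-203 and miR-205) took 5.37% to 6.02% of assigned reads in CON and 3.72% to 5.38% in UN. None of the 5 passed an adjusted p of 0.05 in limma. On the RPM scale all 5 had a log2 fold change below 0, with a median of -0.26 beside -0.12 over all tested miRNAs (3 of 5 were below 0 with RPM scaled by the trimmed mean of M-values, TMM, and 4 of 5 with quantile normalization or without CON replicate 2). The UN libraries lay wholly below the CON libraries for 2 of them, miR-200b (-0.50) and the miR-203 sequence (-0.53), as they did for 12.3% of the 567 tested miRNAs, and the part of these markers in the values of the miR-10 members was not tested. Over the 6 libraries, the summed blood markers stood at 50.9 to 81.0 RPM and the neural markers at 51.9 to 160 RPM. The liver marker miR-122 stood at 6.63 to 148 RPM and the striated muscle markers at 2049 to 4078 RPM. No marker was at 0 in every library. In CON replicates 1 to 3 miR-122 stood at 6.63, 148 and 12.8 RPM. The neural markers stood there at 117, 160 and 51.9 RPM and the striated muscle markers at 4078, 2324 and 3933 RPM. Without CON replicate 2 the log2 fold change of miR-122 was 1.99 (adjusted p = 0.035 with limma). With all libraries it was 0.70 (adjusted p = 0.86 with limma), and 0.015 in edgeR. All 3 blood markers had a log2 fold change below 0 in limma and in every alternative, with a median of -0.33 in limma. None passed the adjusted test. The neural and striated muscle markers also lay below 0 on the RPM scale, but not all of them with TMM scaling. In bulk tissue, fewer cells of a type and less RNA per cell cannot be told apart.

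miR-10a was among the most abundant miRNAs of the rumen. It stood at 16141, 23785 and 18531 RPM in CON replicates 1 to 3 and at 17290, 19616 and 18429 RPM in UN replicates 1 to 3. Its rank among all listed miRNAs was 9, and 10 in CON replicate 1. The highest value and the lowest both belonged to CON, so the UN values lay wholly inside the CON range. These levels rest on 323872 to 658889 reads per library, and the exact 95% Poisson interval in UN replicate 1, which had the fewest, was 17231 to 17350 RPM, so counting error is small beside the spread between fetuses. Such intervals cover counting error only, since PCR copies were not told apart.

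miR-10b was present at a lower level. CON replicates 1 to 3 held 2548, 3966 and 2481 RPM of it, and UN replicates 1 to 3 held 2300, 2697 and 2628 RPM, from 43078 to 88231 reads. Its rank ran from 32 to 39 among all listed miRNAs. As with miR-10a, CON replicate 2 held the highest value, and the groups overlapped.

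**Figure D1:**
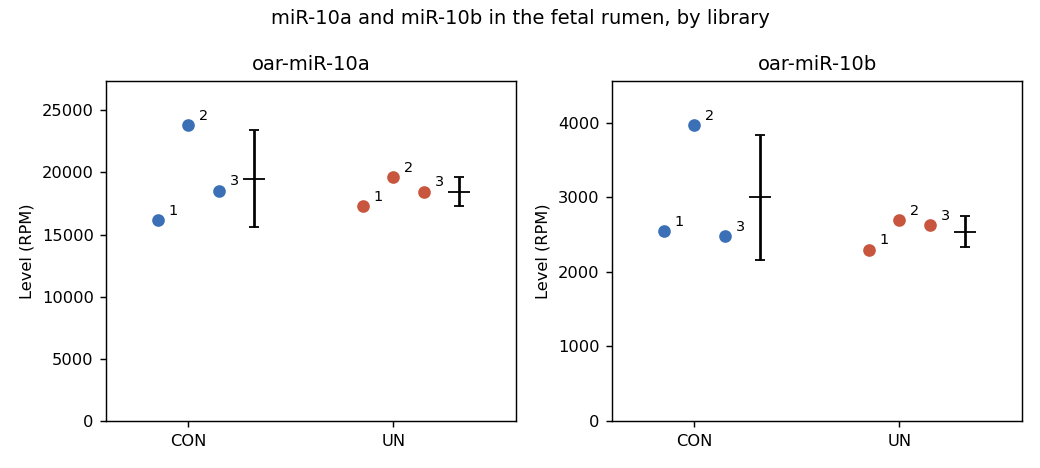
Level of miR-10a (left) and miR-10b (right) in RPM, with 1 numbered point per library and a bar for the group mean ± SD (n = 3). CON replicate 2 is the highest library in both panels, at 23785 and 3966 RPM, and the other 5 libraries lie close together.

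Neither member differed between UN and CON beyond the spread between fetuses. The mean of miR-10a was 19486 ± 3910 RPM for CON against 18445 ± 1163 RPM for UN (SD, n = 3 each). Its log2 fold change was -0.06 on the log2(RPM + 1) scale (standard error 0.18, adjusted p = 1.00 with limma). The 95% interval of its fold, 0.73 to 1.26, leaves out changes beyond these sizes in either direction but not smaller ones. The mean of miR-10b was 2999 ± 838 RPM for CON against 2541 ± 212 RPM for UN (SD, n = 3 each), with a log2 fold change of -0.21 (standard error 0.22, adjusted p = 0.85 with limma). The 95% interval of its fold was 0.63 to 1.20. Of the 567 miRNAs tested, 0 passed the adjusted threshold in limma (0%) and 29 (5.11%) had an unadjusted p under 0.05. At the study's thresholds, an unadjusted p under 0.05 with a fold over 1.5 or under 0.67, the share in limma was 1.76%. The study used these thresholds with DESeq2, so this share does not reproduce its list. The members were in none of these limma counts. edgeR on the reads behind the values called 1 miRNA and DESeq2 called 2, again without the members.

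Read against all tested miRNAs, the members lay in the middle of the distribution. The median log2 fold change of the 567 was -0.12 on this scale, with 343 below that of miR-10a and 200 below that of miR-10b. The UN libraries lay wholly above the CON libraries for 1.06% of the tested miRNAs and wholly below them for 12.3%, and neither member belonged to these. The sign of the member differences depended on the scaling. With TMM-scaled RPM, which moved the median of all tested miRNAs to 0.01, the log2 fold change was 0.11 for miR-10a and -0.04 for miR-10b. With quantile normalization both lay above 0, at 0.06 and 0.09. No setting brought either past the adjusted test.

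**Figure D2:**
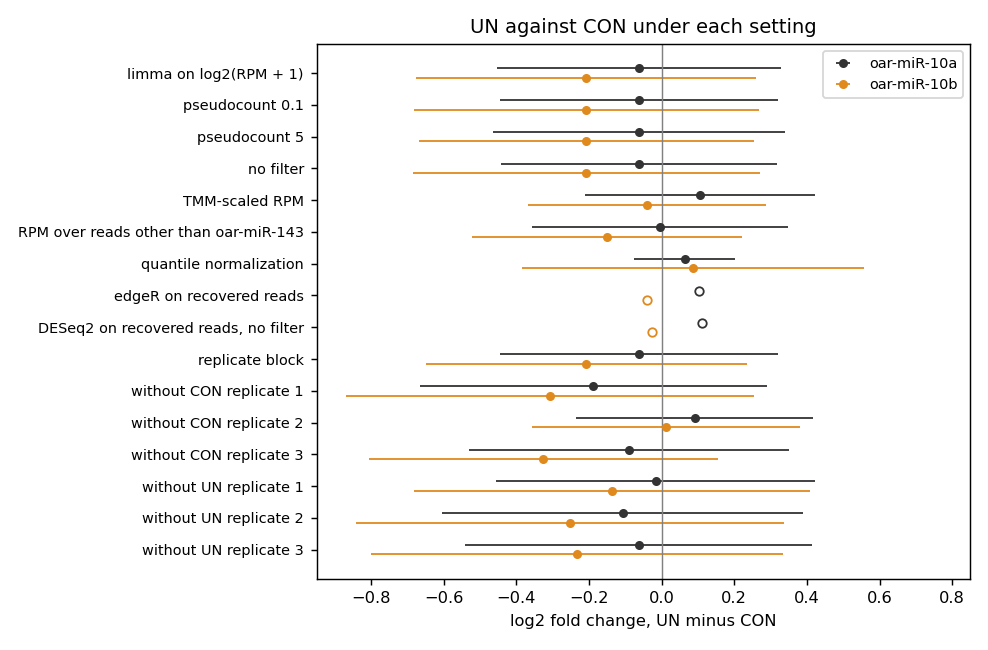
Log2 fold change of UN minus CON for miR-10a (black) and miR-10b (orange) under each setting, with 95% intervals where limma gives them and open circles for edgeR and DESeq2. Every interval drawn includes 0, and the points of miR-10a run from -0.19 to 0.11.

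Within CON, replicate 2 lay farthest from the other fetuses for both members. The coefficient of variation was 20.1% in CON and 6.31% in UN for miR-10a, and 28.0% and 8.34% for miR-10b. Without CON replicate 2 the log2 fold change of miR-10a moved to 0.09 (adjusted p = 0.91 with limma) and that of miR-10b to 0.01 (adjusted p = 1.00 with limma). This library also had the lowest share of miR-143, which enters the denominator of every RPM value. When RPM was taken over reads other than those of miR-143, miR-10a stood at 27960, 33733 and 37081 in CON and at 27744, 34894 and 35785 in UN, so that CON replicate 2 was no longer the highest. With TMM scaling it stood at 15859, 18604 and 20259 RPM in CON and at 17708, 21309 and 19717 RPM in UN. miR-10b kept its highest value in CON replicate 2 under both scalings, at 3102 RPM with TMM against 2355 to 2929 RPM in the other libraries. On the RPM scale the pooled within-group SD of miR-10a was 0.21 in log2 units and that of miR-10b 0.28, beside a median of 0.24 over the 59 tested miRNAs with a mean above a threshold of 1000 RPM.

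**Figure D3:**
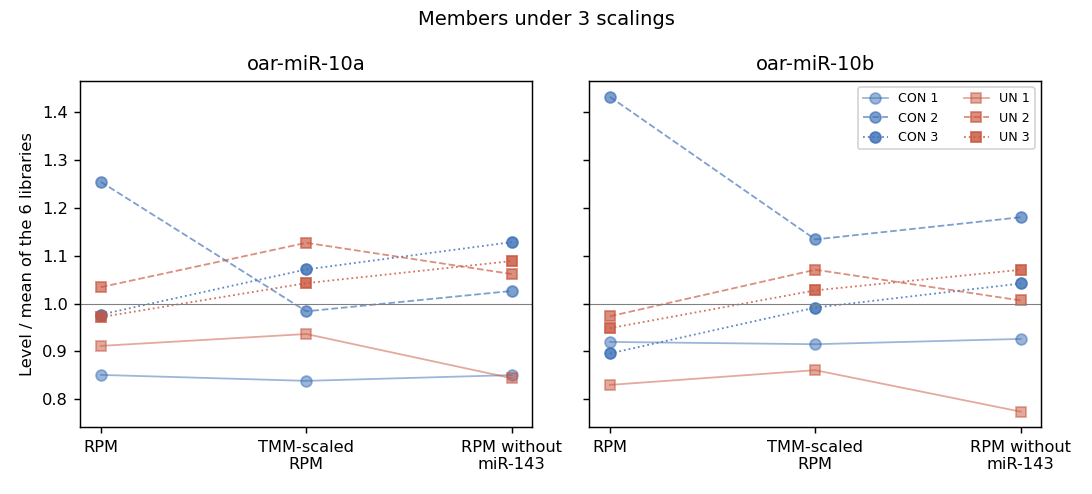
Level of each member in each library divided by the mean of the 6 libraries, under RPM, TMM-scaled RPM and RPM over reads other than miR-143 (circles CON, squares UN). CON replicate 2 stands apart in RPM and falls among the other libraries for miR-10a once the scaling changes, while for miR-10b it stays highest.

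The ratio of the members within a library does not depend on depth or on the other miRNAs. Small RNA libraries take up some sequences better than others, so it is given as a ratio of reads. Reads of miR-10a outnumbered those of miR-10b by 6.33, 6.00 and 7.47 to 1 in CON replicates 1 to 3 and by 7.52, 7.27 and 7.01 to 1 in UN replicates 1 to 3. Between 11.7% and 14.3% of the reads of both members were thus miR-10b. The UN ratios were close together and the CON ratios more spread, with CON replicate 3 inside the UN range. The mean was 6.60 ± 0.77 in CON and 7.27 ± 0.25 in UN (SD, n = 3 each), a difference of 0.15 in log2 units (exact two-sided permutation p = 0.3, where 3 against 3 cannot go below 0.1). The difference was 0.08 without CON replicate 2 (exact p = 0.6) and 0.24 without CON replicate 3 (exact p = 0.1, the smallest that 3 against 2 allow).

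**Figure D4:**
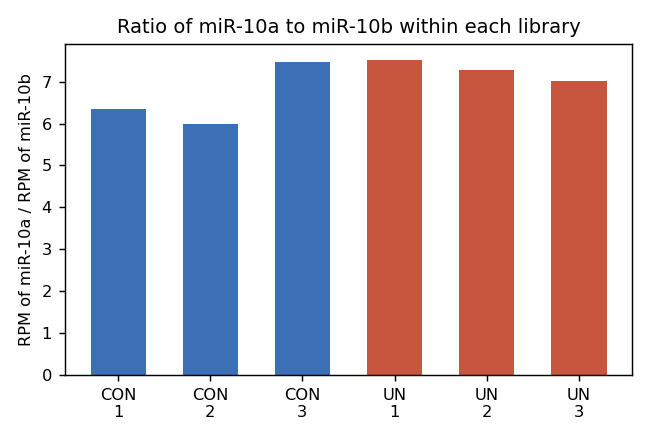
Ratio of the RPM of miR-10a to that of miR-10b in each library (bars from 0, blue CON, red UN). The UN bars lie between 7.01 and 7.52 and the CON bars between 6.00 and 7.47, so the groups overlap at CON replicate 3.

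Among the members and the relatives shown above, the order of levels was the same in all 6 libraries. miR-99a lay above miR-10a, miR-10a above miR-10b and miR-10b above the miR-100 sequence. oar-miR-125b, which also lies near the members in sequence, stood between miR-10a and miR-10b in each library. miR-99a, encoded beside let-7c in the RefSeq table, stood at 24505, 34284 and 22205 RPM in CON and at 31383, 25145 and 30327 RPM in UN. The CON ranges of miR-99a and miR-10a overlapped, although miR-99a was higher within each library, and the UN ranges did not. The miR-100 sequence (novel_miR_1092) lay at 638 to 924 RPM except in UN replicate 2, which had 1947 RPM, and this range did not meet that of miR-10b. Neither relative passed the adjusted test, with a log2 fold change of 0.12 for miR-99a (adjusted p = 0.94 with limma) and 0.59 for novel_miR_1092 (adjusted p = 0.84 with limma). The log2 fold change of miR-99a was 0.29 with TMM-scaled RPM and with edgeR, 0.30 with DESeq2 and -0.01 without CON replicate 3. That of novel_miR_1092 was 0.21 without UN replicate 2 and 0.88 in DESeq2 on the recovered reads with no filter. Its unadjusted p in DESeq2 was 0.0045, so it passed the study's p and fold thresholds there. novel_miR_1092 also passed them in edgeR (unadjusted p = 0.017) and in limma with TMM-scaled RPM (unadjusted p = 0.026). It did so in limma with the replicate block and without CON replicate 2, UN replicate 1 or UN replicate 3 (unadjusted p from 0.019 to 0.043). It did not in limma on all 6 libraries (unadjusted p = 0.066), with quantile normalization (0.11) or without UN replicate 2 (0.48). Its adjusted p ran from 0.38 to 1.00 over the alternatives in limma, edgeR and DESeq2.

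Ratios of a member to a relative gave 1 of 4 in which the groups did not overlap. miR-10b stood to novel_miR_1092 as 3.43, 4.31 and 3.89 to 1 in CON and as 2.49, 1.38 and 3.16 to 1 in UN. Each UN ratio was thus below each CON ratio, and UN replicate 2 was the lowest. As background, the ratio of miR-10b to 4.26% of the 563 other tested miRNAs with reads in every library lay wholly lower in UN, and to 2.13% wholly higher. miR-10a stood to novel_miR_1092 as 21.7, 25.8 and 29.0 to 1 in CON and as 18.7, 10.1 and 22.2 to 1 in UN, and these overlapped between CON replicate 1 and UN replicate 3. For miR-10a the background was 1.6% wholly lower in UN and 6.04% wholly higher. The ratio of miR-10a to miR-99a ran from 0.55 to 0.83 over the 6 libraries and that of miR-10b to miR-99a from 0.07 to 0.12, with overlap of the groups in both. These 4 ratios were looked at after the levels were known and were not tested.

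The HOX loci also encode miR-196, known in mouse to repress *Hoxb8*, and miR-615, which lies within the *HOXC5* gene in mammals. Their sequences are shown because 2 of the miR-196 entries each differ by a single base from novel_miR_40 over their shared length, again with bases 2 to 8 in capitals.
novel_miR_40, the miR-196a sequence: uAGGUAGUuucauguuguuggga
novel_miR_577, the miR-196b sequence: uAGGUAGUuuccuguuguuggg
novel_miR_1004, a miR-196 variant: uAGGUAGUuuuauguuguuggg
novel_miR_319, the miR-615-3p sequence: uCCGAGCCugggucucccucu
Counted from the 5′ end of novel_miR_40, novel_miR_577 carries A12C and novel_miR_1004 carries C11U. Reads with a mismatch could therefore move between these entries as well.

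The HOX locus miRNAs differed in level by several orders of magnitude, and the miR-10 members made up 99.7% to 99.9% of the reads of the 6 HOX locus entries in a library. miR-10a alone made up 85.5% to 88.1%. The miR-615-3p sequence stood at 31.7, 61.2 and 47.2 RPM in CON and at 27.5, 30.4 and 49.5 RPM in UN. The miR-196b sequence had 10 to 19 reads per library and lay between 0.447 and 1.01 RPM, and the miR-196a sequence had 2 to 30 reads and lay between 0.107 and 0.844 RPM, so these neighbours in the order of levels overlapped. novel_miR_1004 stood at 1.06, 1.61 and 8.63 RPM in CON and at 1.07, 1.56 and 3.44 RPM in UN, which put CON replicate 3 and UN replicate 3 above the other libraries. The same libraries were the highest for novel_miR_40, at 0.844 and 0.517 RPM. The assigned reads were also highest in these libraries, at 35555822 and 27059374, and the part of depth in this was not tested. The filter on low reads kept 3 of these 4 entries, without novel_miR_40, and 0 of the 3 passed the adjusted test, the lowest adjusted p being 0.85 in limma. Their log2 fold changes were 0.11 for novel_miR_577, -0.38 for novel_miR_1004 and -0.37 for novel_miR_319, around a median of -0.37 beside -0.12 over all tested miRNAs. These values were not stable. In edgeR they were 0.48, -0.86 and -0.19, and novel_miR_1004 stood at 0.30 without CON replicate 3. The median ran from -0.62 without UN replicate 3 to 0.10 without CON replicate 3.

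**Figure D5:**
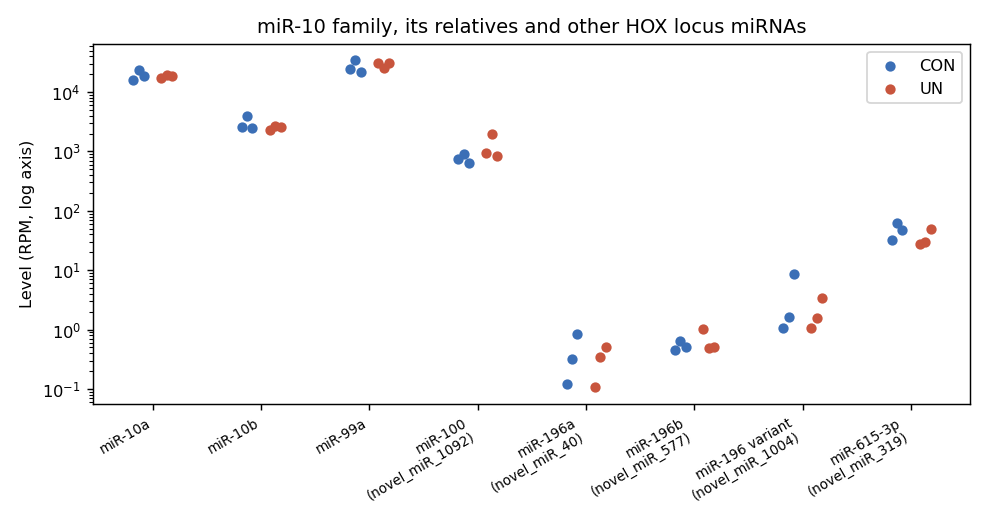
Level in RPM on a log axis of the miR-10 members, their relatives and the other HOX locus miRNAs, with 1 point per library (blue CON, red UN). miR-10a lies at 16141 RPM or above throughout, whereas the miR-196 sequences reach at most 8.63 RPM.

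The members followed each other over the 6 libraries, with a Pearson r of 0.90 and a Spearman rho of 0.71 for log2(RPM + 1). These points share the RPM denominator, and r was 0.48 over the 5 libraries other than CON replicate 2 and 0.59 with TMM scaling. miR-10a ranked eighteenth among the 566 other tested miRNAs by likeness to miR-10b, and miR-10b eighth by likeness to miR-10a. The most alike to miR-10b was miR-125b (r = 0.99), which lies 5 edit changes from it in sequence. miR-125b stood at 3746, 4870 and 3610 RPM in CON and at 3558, 3892 and 3960 RPM in UN. It was followed by oar-miR-370-5p, novel_miR_1131, novel_miR_1114 and novel_miR_1013, with r from 0.97 down to 0.95. The most alike to miR-10a were novel_miR_835, novel_miR_179, novel_miR_52, novel_miR_625 and novel_miR_297, with r from 0.95 down to 0.91 and mean levels of 0.501 to 46.7 RPM. All 10 of these had their highest RPM in CON replicate 2, as the members did, and the likeness is a description over 6 libraries.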

How the data were processed

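Small RNA (18 to 30 nt, size-selected) of 6 fetal rumens was sequenced single-end, and the authors placed cleaned reads on the sheep genome with Bowtie2, then tabulated annotated and predicted miRNAs. Labels and paper disagree on the library kit. The version of Bowtie2, and how reads with mismatches or several matches were treated, is not given in the sources used here. The authors deposited RPM per miRNA, in columns named TPM, which sum to 1000000 and are not divided by length. All values above 0 (100%) were whole multiples of 1 read within 0.001 reads, so reads were recovered. These totals count reads assigned to miRNAs only.

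The deposited RPM were taken to log2(RPM + 1) and compared over all 6 libraries with limma 3.58.1 (trend) in R 4.3.3, with no covariate, for the 567 miRNAs kept by filterByExpr on the recovered reads (minimum count 10, minimum total 15), with Benjamini-Hochberg adjustment. Alternatives were other pseudocounts (0.1 and 5), no filter, TMM, quantile normalization, RPM over reads other than miR-143, edgeR 4.0.16, DESeq2 1.42.0, the replicate number as a block, and leaving out each library. Scripts were tested on simulated reads. No pair of libraries in a group was a duplicate (chi-square of at least 532 per degree of freedom). Sequences are those the authors listed for the 1253 miRNAs, and neighbouring genes come from RefSeq. Named were the members, the relatives, the HOX locus entries and the 5 miRNAs most alike to each member by Pearson r. Members and lists were chosen with earlier results of these data known.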

Additional observations from a re-analysis of the deposited data

How the results depend on the processing

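Over 15 alternatives each, neither member passed an adjusted p of 0.05, and adjusted p ran from 0.85 to 1.00 for miR-10a and from 0.55 to 1.00 for miR-10b. The log2 fold change of miR-10a, -0.06 in limma, was 0.11 with TMM-scaled RPM, 0.063 with quantile normalization, 0.10 with edgeR and 0.11 with DESeq2 on recovered reads, and -0.19 to 0.091 when 1 library was left out (above 0 without CON replicate 2 only). That of miR-10b, -0.21, was 0.086 with quantile normalization and -0.33 to 0.012 when 1 library was left out (0.012 without CON replicate 2). The ratio of miR-10a to miR-10b kept its direction in all 8 alternatives, with a difference of 0.08 to 0.24 in log2 units. The cause of these shifts was not tested.

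Over all miRNAs, the adjusted threshold of 0.05 was passed by 0 up and 0 down in limma, against 29 with an unadjusted p under 0.05. There was 1 up with TMM-scaled RPM, with miR-143 taken out of the RPM, with quantile normalization and with edgeR on recovered reads, and 2 with DESeq2 and no filter. Leaving out 1 library gave 0 to 2 up and 0 to 1 down (2 up and 1 down without CON replicate 2, 1 down without CON replicate 3). The replicate block left the log2 fold changes of the members at -0.06 and -0.21 and called 0 miRNAs. Deviations of same-numbered libraries correlated at -0.07, 0.07 and 0.19 for replicates 1 to 3. The highest correlation with a UN library of another number was 0.05, 0.17 and -0.12. Whether the numbers pair the libraries cannot be settled from so few values.

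With 3 fetuses a group, the 95% intervals of the fold in limma on log2(RPM + 1) run from 0.73 to 1.26 for miR-10a and from 0.63 to 1.20 for miR-10b. Differences inside them are not excluded, and intervals under some other settings reach beyond them.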
